A study of Mus musculus with 28 samples.

Results

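The genes described here are 10 members of the Notch pathway, taken by name from the 22919 genes that each comparison table lists: the ligand Dll1, the receptors Notch1, Notch2 and Notch3, the Fringe genes Lfng, Mfng and Rfng, and the Hes and Hey genes Hes1, Hes5 and Hey1. They were selected on earlier results of these data, chosen by the lower Lfng value in the shRai1 against shCtrl comparison under TTX and by membership of the same pathway. That contrast, and the TTX interaction that contains it, are given for Lfng as a description with no test. The TTX response of Lfng in shRai1 shares TTX libraries with that contrast and is given likewise. Nascent RNA was measured by Bru-seq: RNA made during a brief pulse of bromouridine is pulled down with an antibody against that nucleoside and sequenced, and reads over exons and introns then report ongoing transcription. Mouse forebrain cultures were made from cortices and hippocampi of CD1 embryos at embryonic day 18, pooled per replicate over embryo groups with matched sex ratios, and are labelled as a mixture of neurons, astrocytes and oligodendrocyte precursor cells.

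All cultures were infected with a lentivirus on day in vitro 14, that carried a short hairpin RNA, either a control (shCtrl) or one directed at Rai1 (shRai1), and were harvested on day 17. For the last 4 hours they received water as vehicle, tetrodotoxin (TTX, 1 µM), which blocks sodium channels and so action potentials, or bicuculline (BIC, 20 µM), which blocks inhibitory GABA-A receptors and raises network activity. Bromouridine (2 mM) was present for the final 20 minutes. The 16 Bru-seq libraries formed 6 groups of 3, except that shCtrl vehicle (replicates 1 and 2) and shCtrl BIC (replicates 2 and 3) had 2 each. The labels give the strain, CD1, and no engineered allele. The series also holds 12 ChIP-seq samples, not analysed here.

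In Notch signalling, a ligand such as Dll1 on one cell binds a Notch receptor on its neighbour, and gamma-secretase then releases the receptor's intracellular domain, which joins the DNA-binding protein RBPJ in the nucleus and switches on genes such as Hes1, Hes5 and Hey1. The Fringe enzymes add a sugar to Notch in the Golgi and thereby change how strongly the receptor answers Delta-like and Jagged ligands. In the developing forebrain the pathway is known for keeping radial glia undifferentiated and for favouring astrocytes, while Hes and Hey proteins repress proneural genes.

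The promoters of Lfng, Rfng and Hes5 are shown because they belong to the Fringe genes that fell under BIC, Lfng and Rfng, and to Hes5, a classical RBPJ target. Windows of 300 bases, from 250 before to 50 after the annotated start, came from RefSeq on build GRCm38.p6; 7 of the 10 members matched, with 8 windows. Capitals mark matches on either strand to the RBPJ core TGGGAA, the N-box CACNAG bound by Hes proteins, the E-box CACGTG, and the cyclic AMP response half-site TGACG. An AP-1 motif, TGANTCA, was also searched.
Lfng, chr5:140607091-140607390, plus strand: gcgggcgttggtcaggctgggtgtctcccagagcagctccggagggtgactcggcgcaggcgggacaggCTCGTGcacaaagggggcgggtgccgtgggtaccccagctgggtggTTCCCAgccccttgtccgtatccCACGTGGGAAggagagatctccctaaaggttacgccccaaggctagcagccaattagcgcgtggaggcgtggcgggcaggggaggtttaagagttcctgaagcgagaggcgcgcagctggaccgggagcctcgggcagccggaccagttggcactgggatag
Hes5, chr4:154960673-154960972, plus strand: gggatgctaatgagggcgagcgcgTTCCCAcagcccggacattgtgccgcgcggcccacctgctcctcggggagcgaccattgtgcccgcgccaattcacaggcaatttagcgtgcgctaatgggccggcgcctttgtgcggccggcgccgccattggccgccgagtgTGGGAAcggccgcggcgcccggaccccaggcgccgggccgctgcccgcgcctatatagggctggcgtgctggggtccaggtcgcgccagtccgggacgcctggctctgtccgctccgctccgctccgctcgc
Rfng, chr11:120784155-120784454, minus strand: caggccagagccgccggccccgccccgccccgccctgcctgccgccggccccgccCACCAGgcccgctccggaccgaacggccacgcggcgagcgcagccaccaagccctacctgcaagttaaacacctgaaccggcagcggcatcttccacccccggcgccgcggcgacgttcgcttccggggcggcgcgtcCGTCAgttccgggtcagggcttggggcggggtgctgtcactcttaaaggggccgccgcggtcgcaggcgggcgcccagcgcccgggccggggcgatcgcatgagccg

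The Lfng window held the RBPJ core at 2 places, with first bases at -135 and -108 from the start site, and an E-box at -112 that overlaps the second of them. It also held an N-box at -181. The Hes5 window held the RBPJ core at -226 and -82. The Rfng window held no RBPJ core, but an N-box at -195 and a half-site at -57. Of all 32851 promoter windows in the table, 25.6% held the RBPJ core, 42.5% the N-box, 7.15% the E-box, 20.8% the half-site and 7.81% the AP-1 motif. Of the 8 windows of members, 2 held the RBPJ core (those of Lfng and Hes5), 6 the N-box, 1 the E-box, 2 the half-site and 1, of Dll1, the AP-1 motif. Matches of this length are therefore common, and binding was not measured here.

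The values are the authors' own summaries: 1 pooled FPKM (fragments scaled by gene length and library size) with a lower and an upper bound per condition, and 7 DESeq2 tables with a log2 change, its standard error (SE) and an adjusted p for each gene. No value per library was used and the depth of single libraries is unknown. The mean normalized count over all libraries, which sets the precision, ranged over the members from 6.59 for Mfng and 16.5 for Hes5 to 1735 for Notch1 and 3349 for Notch2, beside a median of 107 over the 21192 genes tested. A call below means an adjusted p under 0.05. The nascent RNA of the targeted gene was not detectably lower: in the authors' deposited tables Rai1 changed in shRai1 against shCtrl by 0.16 in vehicle (adjusted p 0.357, SE 0.073), by -0.12 in TTX (adjusted p 1, SE 0.064) and by 0.03 in BIC (adjusted p 1, SE 0.073) on the log2 scale. Nascent RNA over the whole gene does not measure the mature mRNA that a hairpin removes, and the Rai1 interval is shared with Srebf1 and microRNA genes, so these values do not check the knockdown. Libraries are therefore named by their label, shRai1, and "knockdown" below means that label.

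In vehicle-treated control cultures 9 of the 10 genes had a lower FPKM bound above 0. Pooled FPKM, a scale per gene length, put Lfng highest at 18.5 (bounds 13.5 to 23.6), followed by Hes1 at 17.0 (11.5 to 22.5), Hey1 at 16.9 (12.2 to 21.6), Notch1 at 14.2 (10.9 to 17.5) and Rfng at 11.8 (8.14 to 15.5). The lower part of the order was Notch2 at 7.43 (5.65 to 9.21), Hes5 at 6.44 (3.35 to 9.53), Dll1 at 6.07 (4.09 to 8.05), Notch3 at 3.02 (2.09 to 3.95) and Mfng at 0.0915 (0 to 0.446). Bounds of neighbours in this order overlapped down to Dll1, and Notch3 and Mfng each lay below the bounds of the gene before it. Manic fringe, encoded by Mfng, was thus near the floor of the assay, and its changes rest on few reads.

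**Figure D1:**
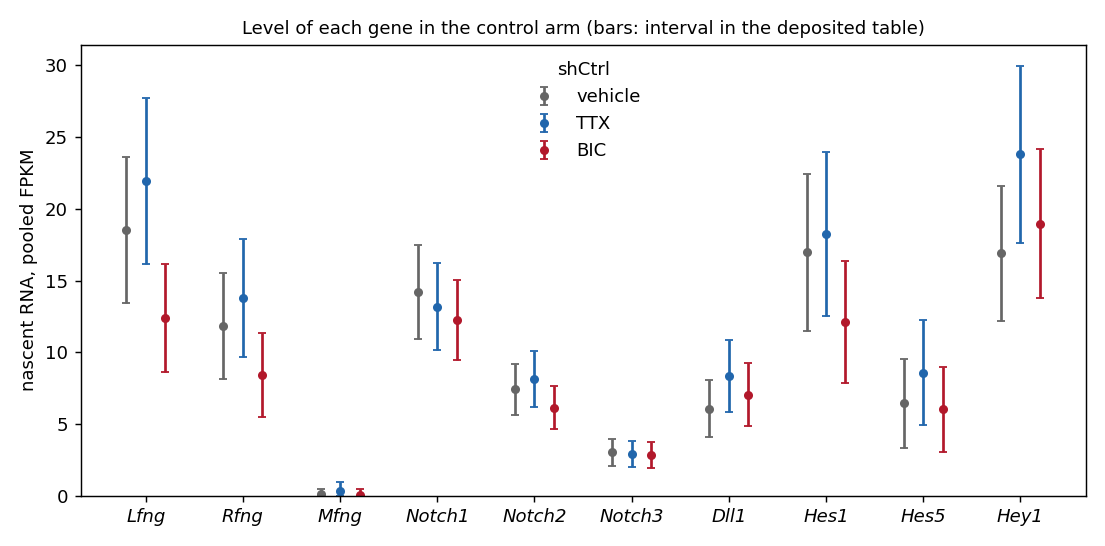
Pooled FPKM of the 10 genes in the shCtrl arm under vehicle, TTX and BIC; points are the authors' value per condition and bars its lower and upper bound in the deposited table. Lfng, Hes1 and Hey1 have the highest levels in vehicle (16.9 to 18.5 FPKM) and Mfng lies near 0 in each condition.

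Marker genes fit the labelled mixture in the control arm. Summed FPKM in vehicle, TTX and BIC was 812, 727 and 759 for 10 neuron markers, 405, 315 and 323 for 12 astrocyte and radial glia markers, and 131, 92.4 and 109 for 6 oligodendrocyte precursor markers. It was 19.8, 20.2 and 28.7 for 7 microglia, 11.7, 13.4 and 13.4 for 5 pericyte and mural, and 1.46, 1.78 and 2.18 for 6 endothelial markers, and no marker was at 0 in all 3 conditions. In such a mixture, fewer cells of a type and less RNA per cell cannot be told apart.

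Most of the called drug responses were to BIC, and each of those was a fall. In shCtrl, BIC lowered Hes1, Lfng and Rfng, 3 of 10 members and 0 higher, beside 34.4% of all genes called and 17.0% called lower. In shRai1 it lowered Hes5, Lfng, Notch1 and Notch2, 4 of 10 members and 0 higher, beside 42.5% called and 21.3% called lower. Averaged over both arms, a combined contrast computed here, 6 of 10 members were lower and 0 higher, beside 46.0% of genes called and 23.6% called lower. The median change of the members was -0.21 in shCtrl and -0.25 in shRai1, against -0.0010 and 0.0042 for all genes with a p-value. For genes with a mean count of at least 50, which most members reach, the medians were -0.0438 and -0.0327. Counted in both directions, the members' shares were near those of all genes.

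The ligand gene Dll1 (chr17:15504318-15512787 in mm9, the build of all gene intervals here) had 6.07 FPKM in vehicle, 8.33 in TTX and 7.05 in BIC, with bounds that overlapped. No response passed in the authors' deposited tables. Its log2 change under BIC was 0.07 in shCtrl (adjusted p 0.818, SE 0.177) and -0.33 in shRai1 (adjusted p 0.0526, SE 0.144) in those tables. Under TTX the authors' deposited tables gave 0.25 in shCtrl (adjusted p 0.257, SE 0.160) and 0.11 in shRai1 (adjusted p 0.617, SE 0.139).

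Among the receptors, Notch1 (chr2:26313422-26359342, an interval it shares with the listed microRNA gene Mir6996) had 14.2 FPKM in vehicle, 13.2 in TTX and 12.2 in BIC. Under BIC the authors' deposited tables gave -0.23 in shCtrl (adjusted p 0.132, SE 0.119) and -0.27 in shRai1 (adjusted p 0.0132, SE 0.095), so that the fall passed in the knockdown arm while the size was similar in both. The difference between these BIC responses was -0.04 (SE 0.152, 95% interval -0.34 to 0.26, adjusted p 1, a Wald test on the deposited values). Under TTX, Notch1 was -0.26 in shCtrl (adjusted p 0.0537, SE 0.106) and 0.14 in shRai1 (adjusted p 0.268, SE 0.094) in the authors' deposited tables. The difference of the TTX responses, 0.40 (SE 0.142), did not pass over all genes (adjusted p 0.184).

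Notch2 (chr3:97817461-97954290), a receptor abundant in glia and progenitors, was the member with the highest mean count and the smallest errors. It had 6.13 FPKM in BIC, 7.43 in vehicle and 8.14 in TTX. In shRai1, Notch2 rose by 0.32 under TTX (adjusted p 8.12e-05, SE 0.073) and fell by 0.19 under BIC (adjusted p 0.0291, SE 0.074) in the authors' deposited tables. The BIC call was lost (adjusted p 0.0813) after centring on the median gene. For shCtrl the authors' deposited tables gave 0.07 under TTX (adjusted p 0.623, SE 0.083) and -0.19 under BIC (adjusted p 0.0975, SE 0.093). Averaged over arms, Notch2 was higher in TTX by 0.20 (adjusted p 0.00192, SE 0.055) and lower in BIC by a log2 change of -0.19 (adjusted p 0.00396, SE 0.059), by the Wald test on combined values. The difference between arms under TTX was 0.26 (SE 0.110) and did not pass (adjusted p 0.386).

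Notch3 (chr17:32257838-32303797), the receptor of mural cells and some progenitors, passed in no comparison. Its FPKM was 2.82 in BIC, 2.91 in TTX and 3.02 in vehicle, and its log2 changes under the drugs lay between -0.15 and 0.22 with adjusted p of 0.193 or more in the authors' deposited tables. The pericyte and mural list, with 3 to 4 of 5 markers given an adjusted p, had 1 call, a lower value under BIC in shRai1.

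Of the Fringe genes, Lfng (chr5:141083295-141091499), which encodes lunatic fringe, had the largest and best supported BIC response. Its FPKM was 12.4 in BIC (bounds 8.62 to 16.1), 18.5 in vehicle (13.5 to 23.6) and 22.0 in TTX (16.2 to 27.7), and the bounds of BIC and TTX did not overlap. Under BIC, Lfng fell by 0.64 in shCtrl (adjusted p 0.00024, SE 0.157) and fell by 0.42 in shRai1 (adjusted p 0.00192, SE 0.121) in the authors' deposited tables. On a linear scale Lfng decreased by 35.9% in shCtrl and decreased by 25.2% in shRai1. The difference of the BIC responses between arms was 0.22 (95% interval -0.17 to 0.61), with an adjusted p of 1 by the Wald test.

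Rfng (chr11:120642059-120645518), which encodes radical fringe, had 11.8 FPKM in vehicle, 13.8 in TTX and 8.44 in BIC. Under BIC it fell by 0.53 in shCtrl (adjusted p 0.0394, SE 0.214), and changed by -0.23 in shRai1 (adjusted p 0.311, SE 0.176), in the authors' deposited tables. Averaged over arms Rfng was lower in BIC by a log2 change of -0.38 (adjusted p 0.0146, SE 0.139). The call in shCtrl was lost (adjusted p 0.0636) once changes were centred on the median of genes with a mean count of at least 50, which lay at -0.04. Rfng did not pass under TTX in either arm, with 0.12 (adjusted p 0.712, SE 0.186) and 0.15 (adjusted p 0.564, SE 0.169) in the authors' deposited tables.

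Mfng (chr15:78586313-78603875) had pooled FPKM of 0.0806 in BIC, 0.0915 in vehicle and 0.328 in TTX, with lower bounds of 0. In TTX its log2 change was 0.85 in shCtrl (SE 0.414) and 1.06 in shRai1 (SE 0.412), and the authors' deposited tables give it no adjusted p there. Averaged over arms the TTX change of Mfng was 0.96 (adjusted p 0.00452, SE 0.292). Among its control values only that in TTX reaches the 0.1 FPKM used as the filter for this test; with no filter the adjusted p was 0.00496. With a mean of 6.59 normalized counts, this value rests on very few reads.

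Of the RBPJ targets, Hes1 and Hes5 were lower under BIC and Hey1 was higher under TTX. Hes1 (chr16:30065443-30067882), an oscillating repressor of proneural genes, had 17.0 FPKM in vehicle, 18.3 in TTX and 12.1 in BIC. It fell by 0.68 under BIC in shCtrl (adjusted p 0.00882, SE 0.225), where it decreased by 37.8% on a linear scale, and changed by -0.26 in shRai1 (adjusted p 0.284, SE 0.189) in the authors' deposited tables. The difference between arms, 0.42 (95% interval -0.15 to 1.00), did not pass (adjusted p 1). Hes5 (chr4:154335032-154336480), the target most tied to Notch activity in neural progenitors, had 6.44, 8.57 and 6.02 FPKM in vehicle, TTX and BIC. Hes5 fell by 0.96 under BIC in shRai1 (adjusted p 0.0211, SE 0.362) and changed by -0.37 in shCtrl (adjusted p 0.506, SE 0.380) in the authors' deposited tables. Hes5 is a short gene with a mean of 16.5 normalized counts, and both errors are wide. Averaged over arms, the BIC change was -0.47 for Hes1 (adjusted p 0.00361, SE 0.147) and -0.66 for Hes5 (adjusted p 0.0269, SE 0.263), by the Wald test on combined values.

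Hey1 (chr3:8663359-8667038), a bHLH repressor of the Hes family that acts downstream of Notch, had calls under TTX and none under BIC. Its FPKM was 16.9 in vehicle (bounds 12.2 to 21.6), 19.0 in BIC (13.8 to 24.2) and 23.8 in TTX (17.6 to 30.0). Hey1 rose under TTX by 0.55 in shCtrl (adjusted p 0.00133, SE 0.147) and by 0.61 in shRai1 (adjusted p 2.42e-05, SE 0.129) in the authors' deposited tables, or by 46.4% and 52.3% on a linear scale. The difference between arms was 0.06 (SE 0.196, 95% interval -0.33 to 0.44). Under BIC it changed by 0.20 in shCtrl (adjusted p 0.374, SE 0.164) and -0.10 in shRai1 (adjusted p 0.628, SE 0.136) in the authors' deposited tables.

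**Figure D2:**
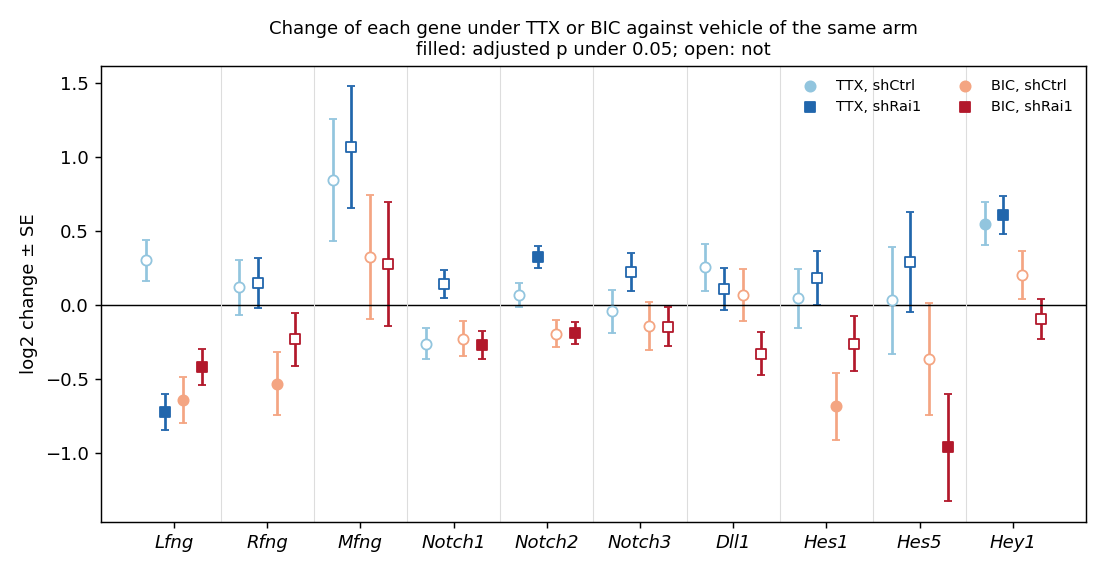
Log2 change with its SE for the 10 genes under TTX or BIC against vehicle of the same arm, from the deposited tables; filled points have an adjusted p under 0.05. Hey1 is filled under TTX in both arms, Lfng under BIC in both arms, and the filled BIC points lie below 0. The Lfng point under TTX in shRai1 shares libraries with the contrast that chose Lfng, and its filling is no test.

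In shCtrl, TTX raised 1 of the 9 members with an adjusted p, Hey1, and lowered 0, beside 26.7% of all genes called and 11.8% called higher. In shRai1 it raised 2 of 9, Hey1 and Notch2, beside 30.5% called and 13.7% called higher. Lfng is among the 9, but its lower value there shares TTX libraries with the contrast that chose it and is not counted. Averaged over arms 3 of 10 members were higher (Hey1, Notch2 and Mfng, the last through a filter that depends on its TTX value) and 0 lower, beside 33.1% of genes called and 15.5% called higher. The median change of the members was 0.09 in shCtrl and 0.20 in shRai1, against 0.0006 and -0.0015 for all genes. It was -0.0092 and -0.0086 for genes with a mean count of at least 50. The members' shares called are near or below those of all genes when both directions are counted.

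For 7 of the 10 genes the TTX change had the same sign in both arms, and for Lfng, Notch1 and Notch3 it did not. Signs are uncertain where a change is small beside its SE, as for Notch3 in shCtrl (-0.04, SE 0.146). For Lfng the log2 change under TTX was 0.30 in shCtrl (adjusted p 0.0894, SE 0.137) in the authors' deposited tables. In shRai1 it was -0.72 (SE 0.122), where Lfng decreased by 39.3%. Relative to shCtrl vehicle, Lfng stood at 0.30 in shCtrl TTX and -0.64 in shCtrl BIC, and at 0.40 in shRai1 vehicle, -0.32 in shRai1 TTX and -0.02 in shRai1 BIC. In shCtrl the order was thus BIC lowest and TTX highest, and in shRai1 vehicle was highest and TTX lowest. Both TTX responses share their TTX libraries with the contrast through which Lfng was chosen, and the shRai1 value is a description.

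**Figure D3:**
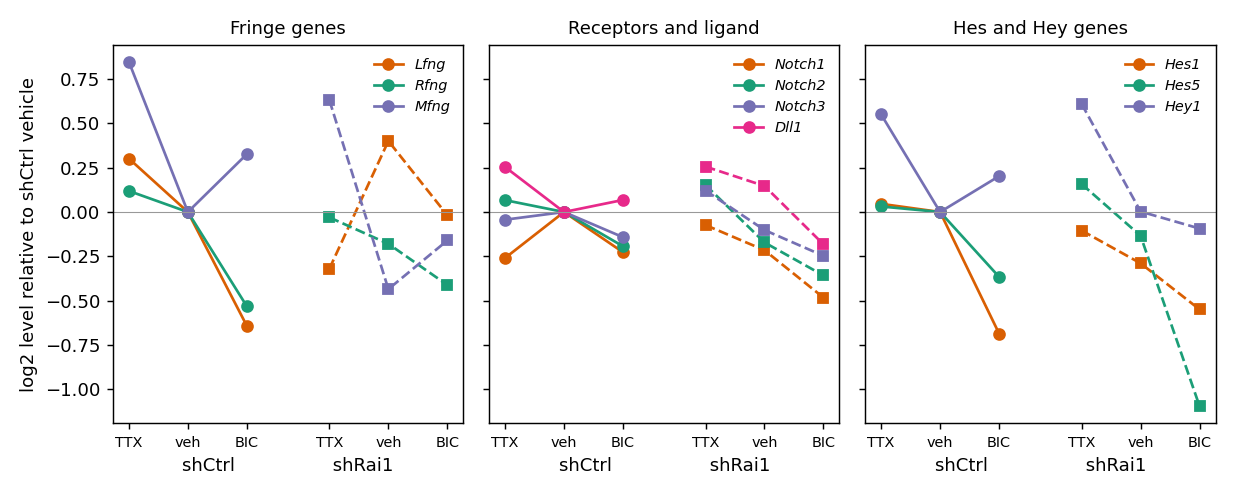
Log2 level of each gene relative to shCtrl vehicle in the 6 groups (shCtrl as circles and solid lines, shRai1 as squares and dashed lines), chained from the deposited log2 changes. Lfng falls from 0.40 in shRai1 vehicle to -0.32 in shRai1 TTX, while its 3 shCtrl values run from 0.30 in TTX to -0.64 in BIC.

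Between the arms, no member was called in a knockdown contrast, with the Lfng value in TTX left out because Lfng was chosen by it. In vehicle 0 of the 8 members with an adjusted p were called, beside 0.857% of all genes (122 of 14237), and 3 of 10 members had an unadjusted p under 0.05 in DESeq2, beside 1642 of 21192 genes. In BIC 0 of 10 were called, beside 0.00944% of genes (2 of 21192), and 4 had an unadjusted p under 0.05, beside 621 of the 21192 genes. In TTX 0 of the 9 members other than Lfng were called, beside 0.0283% of genes (6 of 21192). Those 6 include Lfng, which was chosen by this result and is not counted as an outcome. Averaged over the 3 treatments 0 of 10 were called, beside 0.00548% (1 of 18241), and 0 had an unadjusted p under 0.05, beside 751 genes.

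In the knockdown in TTX, Lfng stood at -0.62 (SE 0.123), a level that decreased by 35.0% on a linear scale. In vehicle it was 0.40 (adjusted p 0.161, SE 0.136) and in BIC 0.62 (adjusted p 0.0581, SE 0.142) in the authors' deposited tables. The sign in TTX was thus opposite to that in vehicle and BIC, and neither of the latter passed. The difference between the knockdown in TTX and in vehicle, which equals the TTX interaction, was -1.02 (SE 0.183), and that between TTX and BIC was -1.24 (SE 0.188). Among the other 9 genes the knockdown changes ranged in vehicle from -0.43 for Mfng to 0.15 for Dll1. In TTX they ranged from -0.22 for Mfng to 0.19 for Notch1, and in BIC from -0.73 for Hes5 (adjusted p 1, SE 0.382) to 0.14 for Hes1, all without a call.

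**Figure D4:**
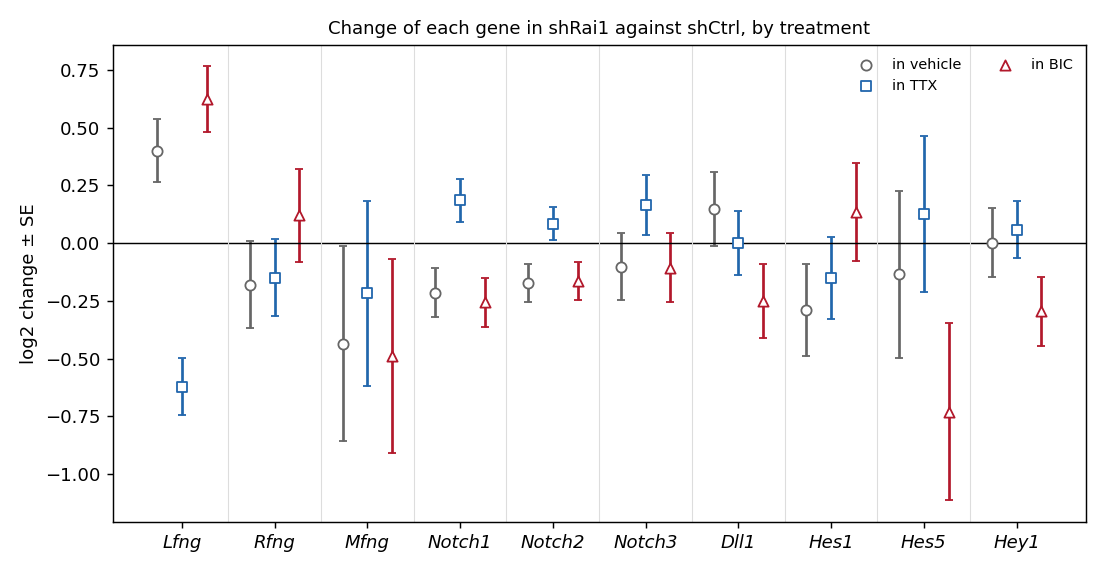
Log2 change with its SE in shRai1 against shCtrl for the 10 genes, within vehicle (circles), TTX (squares) and BIC (triangles), from the deposited tables. Lfng is at 0.40 in vehicle, -0.62 in TTX and 0.62 in BIC, and the other 9 genes lie between -0.73 and 0.19 over the 3 treatments.

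For the interactions, 0 of the 9 members other than Lfng differed between arms under TTX, beside 0.943% of all genes (172 of 18241). Under BIC 0 of 10 members did, beside 0.0219% (4 of 18241), and 0 had an unadjusted p under 0.05, beside 552 genes. The Notch1 and Notch2 TTX interactions, 0.40 and 0.26, had unadjusted p of 0.00459 and 0.0203 and did not pass after adjustment over all genes. Their sign was opposite to that of Lfng.

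Markers of oligodendrocyte precursor cells moved between the same groups as Lfng. Under TTX, and in each knockdown contrast, their medians had the sign opposite to that of Lfng. Of the 6 markers, 4 were lower and 0 higher under TTX in shCtrl (median -0.73), and 5 were higher and 0 lower under TTX in shRai1 (median 0.78). In the knockdown in vehicle 4 were lower (median -0.84), in TTX 1 was higher (median 0.50) and in BIC 1 was lower (median -0.45). Under BIC in shCtrl all 6 were below 0, as Lfng was (median -0.25, range -0.58 to -0.04), with 1 called lower, and in shRai1 0 were called (median 0.15). All 6 had a called TTX interaction, between 0.76 for Olig1 and 2.41 for Gpr17. The positive TTX interactions of Notch1, Notch2 and the pathway gene Itch had the sign of these markers. So did the rises of Notch2 and the ligand gene Dll3 under TTX in shRai1. The markers' part in the Lfng, Notch1, Notch2, Itch and Dll3 values, and in the other falls under BIC, was not tested. The astrocyte and radial glia list had 0 higher and 5 lower of 12 under TTX in shCtrl and 1 higher and 1 lower in shRai1, with 1 called TTX interaction. Under BIC that list had 1 higher and 3 lower in shCtrl and 2 higher and 1 lower in shRai1, beside the falls of Hes1, Lfng, Rfng, Notch1, Notch2 and Hes5, and its part in them was not tested.

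The neuron list, also beside the drug responses, had 1 higher and 4 lower of 10 under TTX in shCtrl, and 0 higher and 3 lower in shRai1. It had 5 higher and 3 lower under BIC in each arm. Between the arms 1 neuron marker, Rbfox3, was called, at 0.24 in the knockdown in vehicle (adjusted p 0.0494 in the authors' deposited table) and -0.40 for the TTX interaction (adjusted p 0.00485), the signs that Lfng had. The neuron list had medians of -0.09 (range -0.26 to 0.24) and 0.0022 (range -0.40 to 0.30) there. Rbfox3 was thus its highest value in the first and its lowest in the second. The 1 astrocyte and radial glia marker called between the arms, Fabp7, had the signs opposite to those of Lfng, at -0.51 (adjusted p 0.0342 in the authors' deposited table) and 0.72 (adjusted p 0.0187). That list had medians of -0.17 (range -0.51 to 0.19) and 0.11 (range -0.59 to 0.72) there. Fabp7 was thus its lowest value in the first and its highest in the second. Rbfox3 and Fabp7 were named after their values were seen, and their part in the Lfng values was not tested. Calls in the microglia list under BIC were 2 higher, of 2 markers with an adjusted p, in shCtrl and 1 higher, of 4, in shRai1. Over all genes 34.4% and 42.5% were called there. Those in the endothelial list were 1 higher, of 4 with an adjusted p, under BIC in shCtrl and 1 higher, of 3, under TTX in shRai1.

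Genes whose 6-group profile lay nearest to that of Lfng, by Euclidean distance over 5 log2 values among 12333 genes with a mean count of at least 50, were Ung (0.30), Dctd (0.45), Trim67 (0.46), Arl16 (0.47) and Bcs1l (0.47). Of the other members that reached this mean count, which Mfng and Hes5 did not, Rfng ranked nearest, at 1471 (0.79). Nearest to Hes1 were Tubb5 (0.10), Mturn (0.16), Mt1 (0.16), Ddn (0.17) and Pcyt1b (0.17). Here Rfng ranked 51 (0.26), whereas Lfng ranked 5110 (0.93) and Hey1 8773 (1.36). These distances share the vehicle libraries and are descriptions.

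The other 53 genes of the pathway list were called in both directions. Under TTX, of 47 genes with an adjusted p, 11 rose and 15 fell in shCtrl and 12 rose and 14 fell in shRai1, beside 26.7% and 30.5% of all genes called. Under BIC 11 rose and 12 fell of 51 in shCtrl, and 12 rose and 16 fell of 52 in shRai1, beside 34.4% and 42.5%. Medians were -0.01, 0.03, -0.13 and -0.10 in that order of comparisons. The knockdown gave 1 call in vehicle, a fall by 0.25 of Itch (adjusted p 0.0458, SE 0.071, in the authors' deposited table), the ubiquitin ligase that turns over Notch, and 0 in TTX and BIC. Itch also had the 1 called TTX interaction (0.35, SE 0.095, adjusted p 0.0281) and was named after its values were seen.

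Under BIC 0 of the 53 genes had a called interaction, beside 0.0219% of all genes. A gene given below for a single arm is thus not shown to differ between the arms. By role, the ligand group held 7 genes. Jag2, a Jagged ligand, fell under BIC by 1.02 in shCtrl (adjusted p 2.45e-11, SE 0.144) and fell by 1.27 in shRai1 (adjusted p 8.09e-27, SE 0.115) in the authors' deposited tables, with FPKM of 7.52 in vehicle and 3.05 in BIC. Dner, a neuronal Notch ligand, rose under BIC by 1.09 in shCtrl (adjusted p 2.3e-31, SE 0.091) and by 1.20 in shRai1 (adjusted p 1.11e-61, SE 0.071) in the authors' deposited tables. In shCtrl its FPKM was 48.0 in vehicle and 50.9 in BIC, so that the size is uncertain. Under TTX in shRai1, Dlk2 fell by 0.82 (adjusted p 1.59e-06, SE 0.155) and Dll3 rose by 0.72 (adjusted p 0.0321, SE 0.274) in the authors' deposited tables. Under TTX in shCtrl, Dlk2 also fell, by 0.48 (adjusted p 0.0175, SE 0.167), and Dll3 changed by -0.41 (adjusted p 0.342, SE 0.296) in the authors' deposited tables. The intervals of Jag2, Dner and Dlk2 are shared with another listed gene. Pofut1 and Poglut1, the enzymes that put the first sugars on Notch, both fell under BIC in each arm (medians -0.46 in shCtrl and -0.55 in shRai1), and were named after their values were seen.

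Among proteases, Furin, which cleaves the Notch precursor, rose under BIC by 1.02 in shCtrl (adjusted p 3.42e-18, SE 0.113) in the authors' deposited tables, from 14.4 to 27.6 FPKM. Over the 10 proteolysis genes the calls under BIC were 1 higher and 2 lower in shCtrl, and 2 higher and 5 lower in shRai1. Mib1, the ubiquitin ligase through which ligands are endocytosed, rose under BIC by 1.06 in shRai1 (adjusted p 5.29e-44, SE 0.074) in the authors' deposited tables, and its interval holds microRNA genes. The 13 genes of endocytosis and turnover had 3 higher and 3 lower under BIC in each arm.

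The nuclear group of 11 genes had 5 higher and 2 lower under BIC in shCtrl, and 4 higher and 3 lower in shRai1. Rbpj itself, named after its values were seen, rose by 0.91 under BIC in shCtrl (adjusted p 1.35e-19, SE 0.097), from 15.7 to 25.2 FPKM, and by 0.94 in shRai1 (adjusted p 1.48e-33, SE 0.076), in the authors' deposited tables. In the same group Maml2, a coactivator of the Notch complex, fell by 1.03 under BIC in shCtrl (adjusted p 1.04e-11, SE 0.143), and Tle2, a Groucho corepressor, rose by 0.74 under TTX in the same arm (adjusted p 0.00124, SE 0.197), in the authors' deposited tables. The size for Maml2 is uncertain, since its FPKM was 4.98 in vehicle and 4.36 in BIC. The 6 other Hes and Hey genes had 1 higher and 1 lower under BIC in each arm (medians 0.15 in shCtrl and 0.16 in shRai1). Of these 6 genes, 4 had an adjusted p in shCtrl and 5 in shRai1. Among them Hes6, which counteracts Hes1, fell by 1.34 under BIC in shCtrl (adjusted p 3.03e-06, SE 0.264) in the authors' deposited tables, from 17.0 to 7.44 FPKM. Of the proneural genes, Neurod1 rose by 1.06 (adjusted p 4.72e-08, SE 0.177) in TTX-treated shCtrl cultures in the authors' deposited tables. In FPKM that was 8.95 in vehicle and 18.0 in TTX. Neurod1 fell by 1.09 under BIC in shRai1 (adjusted p 2.36e-09, SE 0.173) in the authors' deposited tables.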

How the data were processed

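Reads were aligned with Bowtie2 2.2.6 and TopHat2 2.1.0 to mouse build mm9 and compared with DESeq2, per the submitters' processing notes. Each of the 7 comparison tables deposited by the authors lists a mean normalized count, which is a signal averaged over libraries after scaling, and, per the file headers, a log2 change with its SE, the Wald score and p-values before and after adjustment. FPKM is the authors' pooled value per condition, deposited with bounds. The tables come from 1 fit, since mean counts are shared and log2 changes close within 1e-09. The knockdown table for vehicle has no gene names. Its genes were named by their unique mean count, which named 20107 and left 1085 unnamed. Low genes carry shrunken log2 changes (largest absolute value 0.794 for means under 1). The knockdown FPKM columns followed the sign of called changes in 16.7% (TTX) and 62.0% (BIC) of genes, against 91.5% and 90.7% for the control columns, so they served only in the mean used as a filter.

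Combined contrasts (interactions, means over arms or treatments) were computed with Python 3.11.15, pandas 2.3.3, numpy 2.4.6 and scipy 1.17.1. SEs were the root of summed squares over contrasts that share no library, with two-sided Wald tests and Benjamini-Hochberg adjustment over the 18241 genes that averaged 0.1 FPKM or more. The combination step was run on simulated group means with spreads taken from the deposited SEs. That run does not check the SEs themselves, the counts or the shrinkage behind them. FPKM starts were read as 0-based and are printed 1-based, since 8136 lengths then equalled RefSeq's, against 515 otherwise. P-values measure the spread between cultures of pooled embryos. The members and lists were chosen with earlier results of these data known. Named genes were the members, Rai1, at most the 2 largest rises and 2 largest falls of the pathway list per drug response (called, averaging 0.5 FPKM or more), and the 5 genes nearest in profile to Lfng and Hes1. Of these, 1 pathway gene is not reported here. Alternatives were adjustment over all genes or over genes of mean count 50 or more, a threshold of 0.01, centring on the median gene, another source of SEs for the interactions, and a pathway list without genes whose interval is shared.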

Additional observations from a re-analysis of the deposited data

Results flagged for a closer look

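The TTX response of Lfng differed between the knockdown and control arms by -1.02 on the log2 scale (SE 0.183). The response was 0.30 in shCtrl and -0.72 in shRai1. This difference holds the contrast through which Lfng was chosen and is a description. The oligodendrocyte precursor markers differed between the same arms in the other direction (median 1.37), and their part in it was not tested.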

How the results depend on the processing

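No paired analysis was possible because the deposited tables hold no value per library, and leaving out single libraries was not run for the same reason. Of 500 values of single members under the alternatives, 483 kept their direction and call, 11 lost a call, 5 gained one and 1 changed sign: the Notch2 BIC interaction, 0.01 as reported, was -0.0036 after centring on the median gene. Adjusting over genes with a mean count of at least 50 raised the members called to 2 under TTX in shCtrl (adding Notch1, adjusted p 0.0447) and to 1 in the knockdown in BIC (Lfng, adjusted p 0.0338), and left Hes5 and Mfng untested. It also added Dll1 under BIC in shRai1 (adjusted p 0.0402). At a threshold of 0.01, 1 member, Lfng, was called under BIC in shRai1 in place of 4. The counts for the other comparisons stayed within 1.5 times. Without the 12 genes of shared interval, 19 pathway genes were called under TTX in each arm, in place of 26. Centring ended the calls of Rfng under BIC in shCtrl (adjusted p 0.0636) and Notch2 under BIC in shRai1 (adjusted p 0.0813). The low counts of Mfng and Hes5 limit the precision of their changes.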
